A study of Mus musculus with 18 samples.

Results

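The C/EBP family (CCAAT/enhancer-binding proteins) was followed through the chromatin around 5 of its genes, Cebpa, Cebpb, Cebpd, Cebpe and Cebpg. All peaks and regions overlapping the gene body or the 100000 bp on either side of the most upstream annotated start site were taken, whatever their height. This gave 72 of 59617 extended regions, 118 of 82391 reference peaks and 120 of 84660 summits. Cebpa and Cebpg lie 62720 bp apart on chromosome 7, so that their windows overlapped and 15 extended regions and 21 summits counted for both genes. No other windows overlapped.

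Accessibility had been measured by ATAC-seq, in which the transposase Tn5 cuts and tags exposed DNA, in macrophages grown from the bone marrow (BMDMs) of male C57/BL6 mice, wild type and aged 6 to 8 weeks. BMDMs are grown from marrow precursors in culture and are a model of macrophages outside their tissue. Every group had first received the solvent DMSO for 1 h. The 9 groups of 2 libraries comprised cells left untreated and cells given LPS (4 groups) or IL-4 (4 groups), each at 10 ng/mL for 30 min, 1 h, 2 h or 4 h. The peak lists pool all 18 libraries and have no column for any of them. Neither the response to LPS, a bacterial activator of Toll-like receptor signalling, nor that to the cytokine IL-4 could therefore be compared, no replicate spread or depth is known, and no test was run. Every value describes 1 catalog, and is set beside the same value over all coding genes, summits or regions where that was computed and otherwise beside the other C/EBP genes.

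The labelled cell type was checked at defining genes. Over all coding genes, 56.5% had a reference peak no more than 1000 bp from a start site. Such peaks were present at 6 of 6 macrophage markers (Csf1r, Adgre1, Cd68, Itgam, Mertk and Fcgr1). They were present at 0 of 3 T cell, 0 of 3 neutrophil, 0 of 3 epithelial and 0 of 2 hepatocyte markers, and at 1 of 3 B cell markers, Pax5, with a score of 634. The neutrophil markers were Ly6g, Elane and Mpo, and 6 of 12 neutrophil granule and progenitor genes described further on, which include Elane and Mpo, did have a start site peak.

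C/EBP proteins are basic leucine zipper transcription factors that bind DNA as dimers, with each other or with relatives such as ATF4. In the myeloid lineage C/EBPα directs progenitors towards granulocytes and monocytes, C/EBPβ and C/EBPδ act in macrophage activation, and C/EBPε directs late granulocyte differentiation. C/EBPγ lacks an activation domain and works as a dimer partner.

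Sequences are shown for the start sites whose upstream part was given in the RefSeq promoter table (GRCm38.p6) and for the regions described in detail further on. Of the 5 genes, 3 matched the table. The bases up to the position before the table's start site are printed on the strand of the gene, and capitals mark matches to the consensus sequences listed with the motif results.
Cebpa, chr7:35119043-35119292, plus strand: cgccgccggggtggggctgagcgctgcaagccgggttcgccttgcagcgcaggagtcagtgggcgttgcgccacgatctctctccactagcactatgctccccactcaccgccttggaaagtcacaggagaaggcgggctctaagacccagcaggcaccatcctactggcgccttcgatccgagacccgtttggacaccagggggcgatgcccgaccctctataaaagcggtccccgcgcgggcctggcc
Cebpb, chr2:167688665-167688914, plus strand: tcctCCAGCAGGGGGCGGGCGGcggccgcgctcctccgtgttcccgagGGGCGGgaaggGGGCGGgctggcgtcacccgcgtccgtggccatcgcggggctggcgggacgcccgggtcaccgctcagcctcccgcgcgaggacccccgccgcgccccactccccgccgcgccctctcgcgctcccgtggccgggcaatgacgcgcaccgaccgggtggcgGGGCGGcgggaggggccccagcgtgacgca
Cebpg, chr7:35056574-35056816, minus strand: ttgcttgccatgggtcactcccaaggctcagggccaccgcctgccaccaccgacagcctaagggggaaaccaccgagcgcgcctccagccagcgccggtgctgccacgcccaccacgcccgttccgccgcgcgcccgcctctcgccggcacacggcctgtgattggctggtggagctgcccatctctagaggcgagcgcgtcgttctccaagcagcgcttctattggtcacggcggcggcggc
In the Cebpb stretch, the 5 capital GGGCGG matches are SP/KLF letters, starting at -238, -234, -202, -191 and -30 bp from the start site, and a CTCF match starting at -246 bp overlaps the leftmost of them. The stretch had a GC content of 81.6%, against 66.4% for Cebpa and 70.4% for Cebpg. Among 32851 promoters of 300 bases in the same table, 35.7% held the SP/KLF letters and 0.557% the CTCF consensus. The printed Cebpa and Cebpg stretches had no match to any of the 10 motifs. Over the full 300 bases the Cebpg entry held the SP/KLF letters and the Cebpa entry again none.

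Next, the 121 bases (60 on each side of the summit) or 201 bases (100 on each side) around distal summits are given on the strand of the named gene in mm10. The Cebpb pair was chosen as the best scored distal summits of all 5 loci, which also hold the C/EBP letters TTGCNNAA. The Cebpa windows at -12482 and 13894 bp and the Cebpe window at -58413 bp hold the same letters, and the remaining windows show the best distal summits of Cebpd and Cebpe and an element downstream of Cebpa. Capitals mark consensus matches.
Cebpb +71289 bp, chr2:167760104-167760304: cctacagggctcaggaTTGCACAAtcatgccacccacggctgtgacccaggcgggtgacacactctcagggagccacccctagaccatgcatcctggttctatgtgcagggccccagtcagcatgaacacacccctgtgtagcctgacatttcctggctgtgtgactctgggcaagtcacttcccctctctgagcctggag
Cebpb +65163 bp, chr2:167753978-167754178: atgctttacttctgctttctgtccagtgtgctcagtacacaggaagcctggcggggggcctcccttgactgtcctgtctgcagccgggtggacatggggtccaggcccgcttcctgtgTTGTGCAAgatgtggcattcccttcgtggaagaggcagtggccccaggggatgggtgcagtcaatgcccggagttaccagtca
Cebpa -12482 bp, chr7:35106711-35106911: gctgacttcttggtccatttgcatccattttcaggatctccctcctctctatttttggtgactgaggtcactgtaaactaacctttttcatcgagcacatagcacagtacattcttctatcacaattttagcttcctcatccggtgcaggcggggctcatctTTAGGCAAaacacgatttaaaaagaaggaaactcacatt
Cebpa +13894 bp, chr7:35133087-35133287: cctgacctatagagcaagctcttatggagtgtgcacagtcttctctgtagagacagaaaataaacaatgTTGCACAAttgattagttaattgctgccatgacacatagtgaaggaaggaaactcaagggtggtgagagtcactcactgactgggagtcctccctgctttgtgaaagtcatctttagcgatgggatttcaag
Cebpe -58413 bp, chr14:54770487-54770687: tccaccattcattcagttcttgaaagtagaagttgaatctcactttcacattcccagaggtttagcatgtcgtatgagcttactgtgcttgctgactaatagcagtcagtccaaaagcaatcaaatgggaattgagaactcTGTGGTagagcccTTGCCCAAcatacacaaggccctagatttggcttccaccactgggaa
Cebpe -56368 bp, chr14:54768482-54768602: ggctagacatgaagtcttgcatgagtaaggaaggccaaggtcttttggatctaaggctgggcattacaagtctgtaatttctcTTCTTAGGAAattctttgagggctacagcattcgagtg
Cebpd +69314 bp, chr16:15956540-15956660: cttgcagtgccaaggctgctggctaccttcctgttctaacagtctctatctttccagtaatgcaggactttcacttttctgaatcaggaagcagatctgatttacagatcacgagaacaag
Cebpa +37349 bp, chr7:35156582-35156702: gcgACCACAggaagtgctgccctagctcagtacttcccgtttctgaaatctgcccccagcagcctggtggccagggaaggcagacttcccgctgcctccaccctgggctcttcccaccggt
The C/EBP matches were TTGCACAA at Cebpb +71289 bp and Cebpa +13894 bp, TTGTGCAA at Cebpb +65163 bp, TTAGGCAA at Cebpa -12482 bp and TTGCCCAA at Cebpe -58413 bp. TTGTGCAA is the reverse complement of TTGCACAA, so 3 of these windows held the same site. They began between -84 and 62 bp from the summit. The Cebpe -58413 bp window also held a RUNX match, the Cebpe -56368 bp window a STAT6 match and the Cebpa +37349 bp window a RUNX match, while the Cebpd window had none.

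Accessibility at the start sites of the 5 genes was examined first. All 5 had a start site peak, meaning a reference peak at most 1000 bp away, as had 56.5% of 21938 coding genes. Each summit carries a score given by the authors without a stated scale, from 102 to 2781 over the catalog with a median of 737, and a higher value was taken as a stronger call, which the sources used here do not state. In this score the start sites were ordered Cebpa (1955), Cebpg (1903), Cebpd (1581), Cebpb (1224) and Cebpe (834). Scores take few values (219 distinct over 84660 summits), have no error, and neighbours in this order cannot be told apart by a test.

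At Cebpa, the factor of granulocyte and monocyte commitment, the best start site summit was at -178 bp in the reference peak chr7:35118905-35119433, the widest of its locus (529 bp, wider than 96.5% of all reference peaks). Its score exceeded that of 85.1% of the 12321 coding genes with a summit near a start site. A weaker summit at -734 bp scored 613. Both lay over Gm45091, an annotated antisense RNA gene.

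The Cebpg start site summit was at -59 bp with a score above 81.7% of those genes, in chr7:35056459-35056786. At Cebpd, whose mRNA is known to rise fast in inflammation, the summit at -66 bp scored above 58.4% of them, in chr16:15887012-15887473. Further Cebpd summits near its start sites, at -524, 330, 770 and 1879 bp, scored 664, 623, 367 and 476. Cebpb, a regulator of cytokine genes in activated macrophages, had 1 summit there, at 103 bp inside its exon, which scored above 34.3% of the genes (chr2:167688819-167689274).

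The lowest value was that of Cebpe, the granulocyte member, whose summits at 7 and -854 bp scored 834 and 812, above 13.8% of genes with a start site summit. Its promoter also had the lowest CpG content. Within 500 bp of the start site, the observed over expected CpG ratio was 0.369 at Cebpe, 0.858 at Cebpd, 0.889 at Cebpa, 0.950 at Cebpg and 1.01 at Cebpb, with a median of 0.552 over coding genes. The GC content was 58.3% at Cebpe and 67.9% to 75.8% at the other 4 genes. Cebpe was lowest in both ratio and score, while Cebpb had the highest ratio and the lowest score but for Cebpe. A link between CpG ratio and score was not tested.

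**Figure D1:**
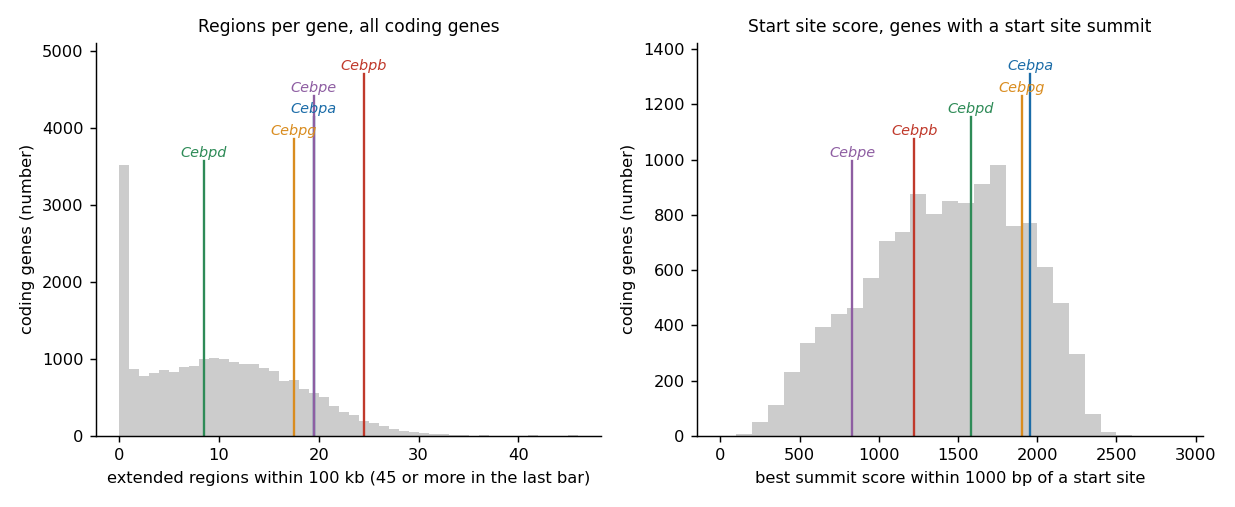
Left, extended regions within 100 kb for 21938 coding genes (bars, number of genes), with the 5 C/EBP genes as lines. The lines of Cebpa and Cebpe coincide at 19 regions, Cebpd is lowest at 8 and Cebpb highest at 24. Right, the best summit score (scale not stated) within 1000 bp of a start site for 12321 coding genes, with Cebpe lowest at 834 and Cebpa highest at 1955.

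The surroundings of the genes also differed. Within 100000 bp, Cebpb had 24 extended regions, Cebpa and Cebpe 19 each, Cebpg 17 and Cebpd 8, while the median coding gene had 9 and the median gene with a start site peak 12. Cebpb thus exceeded 96.1% of coding genes, Cebpa and Cebpe 86.9%, Cebpg 80.9% and Cebpd 43.2%. Against genes with a start site peak alone, Cebpb exceeded 93.9%, Cebpa and Cebpe 80.1%, Cebpg 71.3% and Cebpd 22.3%. The order depended on the window, since within 50 kb Cebpa had 14 regions and Cebpb 11, and within 20 kb Cebpa had 7 and Cebpb 4. In summits the counts were 42, 26, 29, 24 and 20 for Cebpb, Cebpa, Cebpe, Cebpg and Cebpd. Cebpe had 8 other coding start sites within 100000 bp, Cebpa and Cebpb 3 each, and Cebpd and Cebpg 1 each (median 3 over coding genes). Cebpd and Cebpg also had the fewest regions, while Cebpe had fewer than Cebpb. A link between neighbours and regions was not tested.

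Scores at the loci were close to the catalog's at the centre. The 120 summits had a median score of 753.5, and 65 of them (54.2%) were at or above 737, as were 50.5% of all summits. At or above the 90th percentile of the catalog (1568) were 17 summits (14.2%), against 10.2% of all summits. Cebpb held 11 of the 17, or 26.2% of its own 42 summits, while Cebpe held 3 of 29, Cebpa 2 of 26, Cebpg 2 of 24 and Cebpd 1 of 20. Since Cebpa and Cebpg share regions, their pair of high summits is the same pair, the start sites of both genes.

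**Figure D2:**
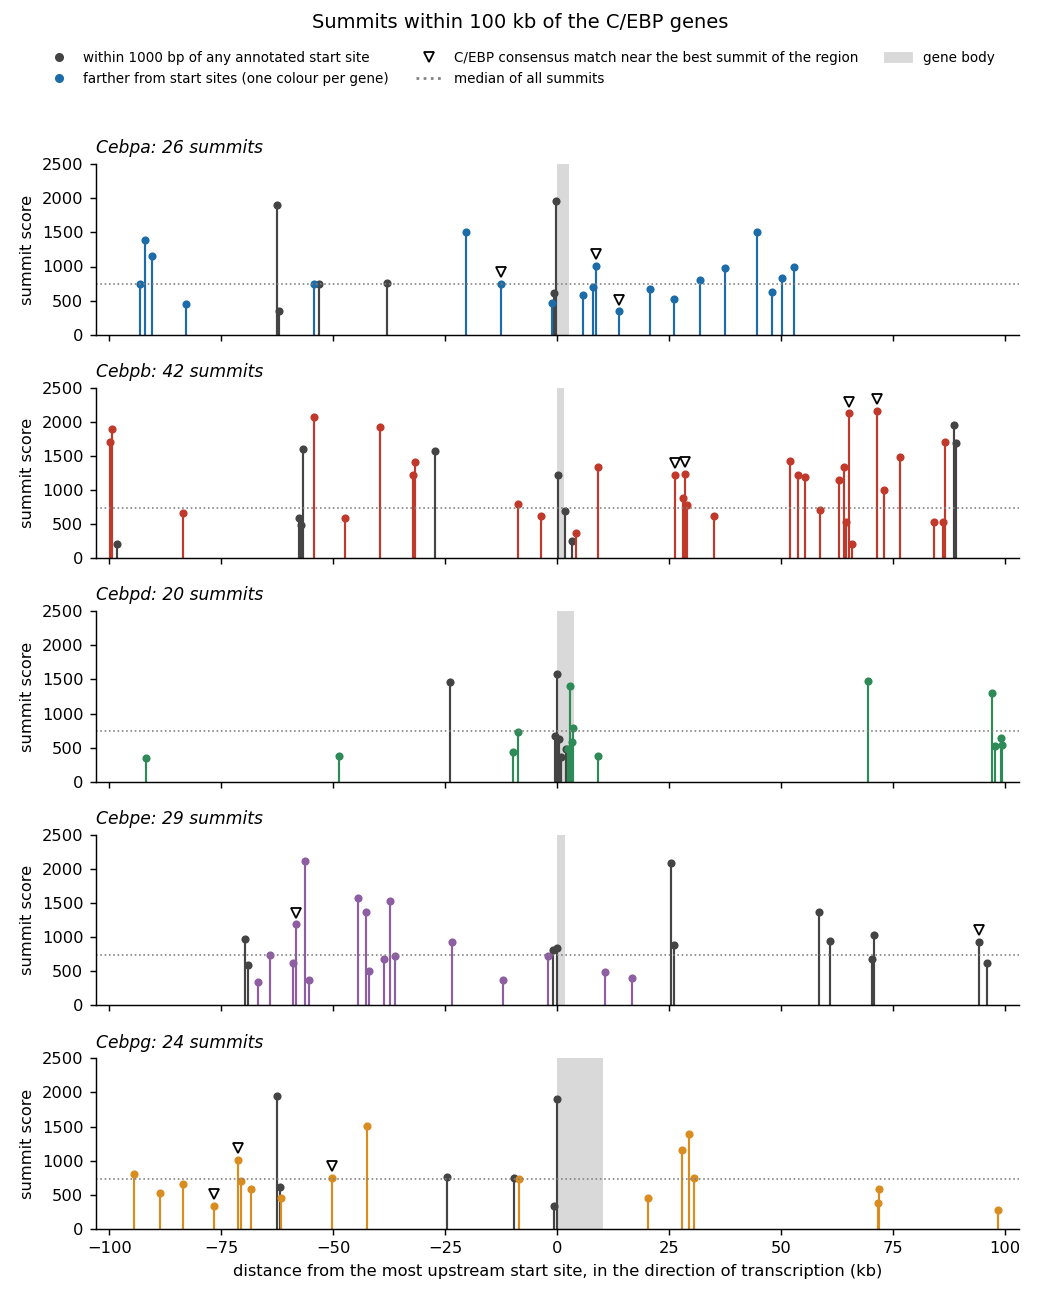
Summit score (scale not stated) against the distance from the start site in kb, negative upstream, with a panel for each C/EBP gene. Cebpb has tall distal summits on both sides, Cebpd has summits crowded over its gene body and few elsewhere, and the 21 summits shared by Cebpa and Cebpg appear mirrored in their panels because the genes are read in opposite directions.

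Around Cebpb, high scored summits lay far from the gene on both sides. The 3 best scored summits over 1000 bp from any start site were at 71289 bp (score 2166), 65163 bp (2127) and -54331 bp (2074), each above at least 98.7% of all summits. They lie in the reference peaks chr2:167759941-167760384, chr2:167753839-167754364 and chr2:167634412-167634716. The downstream pair is intergenic, and the upstream summit is in an intron of Gm20431, a gene annotated across Ube2v1 and Tmem189. This upstream summit lies 2489 bp from the nearest annotated start site, with Ube2v1 as the nearest coding gene. Each of the 3 scored above the Cebpb start site itself (1224).

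From 50 to 100 kb downstream of Cebpb there were 17 summits in 9 extended regions with a median score of 1224, and 50 to 100 kb upstream there were 8 summits. The downstream interval held 2 summits at Cebpa, 5 at Cebpd, 6 at Cebpe and 3 at Cebpg. The upstream interval held 8 at Cebpa, 1 at Cebpd, 8 at Cebpe and 11 at Cebpg, so that Cebpb stood out downstream only. The region with the most summits of the Cebpb locus, chr2:167750998-167755644, spanned 4647 bp with 5 summits, a number above that of 98.6% of all extended regions. The stretch ended at Gm14321, a long noncoding RNA gene, at whose start site a summit at 88551 bp scored 1955. Between Cebpb and this stretch, 4 extended regions had their best summit inside the noncoding gene A530013C23Rik, with scores of 1332, 1224, 1236 and 613.

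Assigning regions to the nearest start site gave different answers for Cebpb. When start sites of all transcripts of coding genes were used, Cebpb was nearest to 3 of its 24 regions, because a noncoding transcript of Tmem189 is annotated to start inside Cebpb. With start sites of coding transcripts alone, an alternative chosen after seeing the data, Cebpb was nearest to 16. The count for Cebpg rose from 3 to 6, and Cebpa (9), Cebpd (5) and Cebpe (3) kept theirs.

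At Cebpa, the best distal summits scored lower than at Cebpb. They were at -20324 bp and 44532 bp, both with a score of 1505, and at -92092 bp in an intron of Pepd (1394). The last belonged to the widest region of this locus (chr7:35025307-35029627), which held 3 summits, as many as the start site region, and also lies in the window of Cebpg. Downstream, 11 regions followed each other up to 52774 bp, and the remaining 47226 bp of the window, which include the start site of Slc7a10, held 0 summits. An element at about the distance of the summit at 37349 bp is known from other work as a myeloid enhancer of Cebpa. This summit scored 979, above 65.9% of all summits, in a region with RUNX and SP/KLF matches, and its neighbour at 31785 bp scored 802 with a PU.1/ETS match.

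Cebpg shared its 3 best distal summits with Cebpa. They were at -42396 bp (1505), 29372 bp (1394) and 27792 bp (1153) from its own start site, the last 2 in Pepd. Only 2 of its 17 regions lay outside the Cebpa window. They had their best summits at 71898 and 98501 bp and scored 583 and 282.

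Cebpd showed the opposite arrangement to Cebpb, with many summits over the gene and few around it. Of its 20 summits, 12 lay within 10 kb of the start site, more than at 90.7% of genes with a start site peak, although the number of regions within 100000 bp was below the median of such genes. The gene is 3746 bp long in a single exon and held 7 summits, more than 99.95% of the 4141 coding genes of up to 5000 bp (median 0, and 1 among the 1417 of them with a start site peak). Cebpb and Cebpe held 1 summit each in the gene body, Cebpa and Cebpg 0.

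Of the 7 summits in the body of Cebpd, those at 330 and 770 bp lay in its coding sequence and those at 1879, 2428, 2863, 3189 and 3471 bp in its untranslated part, with scores of 623, 367, 476, 476, 1406, 583 and 791. The last 4 also overlap the end of Spidr, which is annotated on the opposite strand, and ATAC-seq does not assign DNA to a strand. All 7 belonged with the start site summits to 1 extended region, chr16:15885944-15891545, of 5602 bp with 9 summits, a number above that of 99.9% of all regions. Outside it, 60286 bp without a summit ran from 9028 bp to 69314 bp inside Spidr. The best distal summits were at 69314 bp (1480) and 97148 bp (1296), both in introns of Spidr, and at 2863 bp (1406). The nearest region upstream, with its best summit at -8816 bp (727), consisted to 96.0% of repeat sequence within 100 bp of that summit, whereas the median was 10.4% at the 5 loci and 8.96% over all regions.

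**Figure D3:**
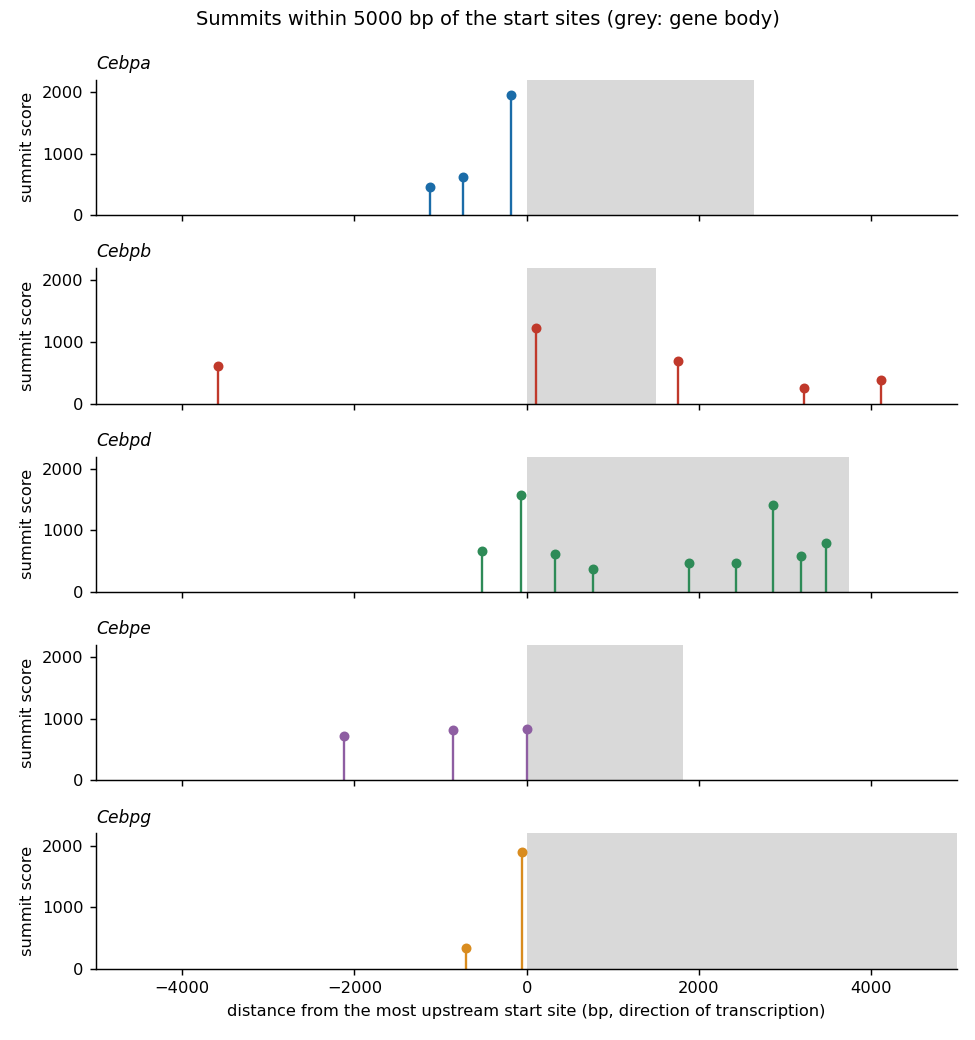
Summit score (scale not stated) within 5000 bp of the start site, in bp, with the gene body in grey and a panel for each gene. Cebpd has 7 summits in its body, as compared to 1 each at Cebpb and Cebpe and 0 at Cebpa and Cebpg.

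At Cebpe, most distal signal lay upstream in Slc7a8, a neighbouring amino acid transporter gene. Summits at -56368 bp (score 2114), -44388 bp (1568) and -37318 bp (1531) were all in its introns, in the reference peaks chr14:54768303-54768775, chr14:54756407-54756776 and chr14:54749368-54749637. The strongest exceeded 99.1% of all summits, and each of the 3 scored above the start site of Cebpe. Downstream, 7 of 9 regions had their best summit at a start site. Of these, 6 were nearest to Acin1, Cdh24 or Psmb5, with scores of 613 to 2087, and the other was the start site region of Cebpe itself. Which gene these regions act on was not measured.

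**Figure D4:**
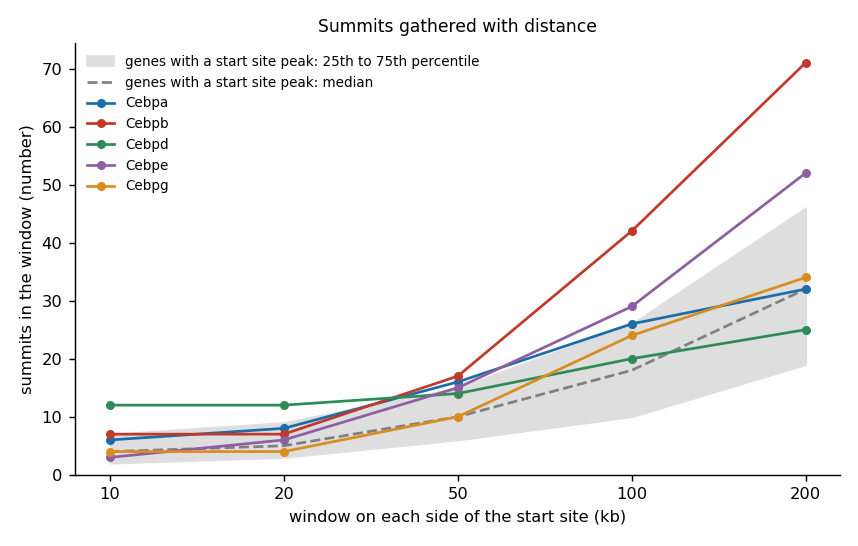
Summits (number) within 10 to 200 kb of the start site for the 5 C/EBP genes (lines), with the median and the 25th to 75th percentile of 12402 coding genes with a start site peak (dashed line and band). Distances are spaced as categories. Cebpd starts highest with 12 summits within 10 kb and ends lowest with 25 within 200 kb, and Cebpb goes from 7 to 71.

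The 72 regions were then described by annotation. Their best summit was within 1000 bp of an annotated start site in 18 cases (25.0%, 95% Wilson interval 16.4% to 36.1%, for counting error only), and over all regions in 25.0%. Of the 18, 5 were the start sites of the C/EBP genes and 13 those of other genes. Introns of coding genes held 24 (33.3%, against 39.3% of all regions), noncoding genes 7 (9.72%, interval 4.79% to 18.7%, against 4.53%), intergenic sequence 22 (30.6%, against 28.5%) and coding exons 1. The noncoding genes were A530013C23Rik and Gm11476 at Cebpb and Gm35665 in the overlap of the Cebpa and Cebpg windows. Regions in the same gene are not independent, which the interval ignores. The best scores of the 54 distal regions had a median of 878.5, above the 716 of all distal regions, and those of the 18 promoter regions one of 1296.5, beside 1272. Per gene, the distal median was 1284 at Cebpb, 923 at Cebpe, 802 at Cebpa, 664 at Cebpg and 555.5 at Cebpd.

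For each region, both strands of the 100 bp on either side of its best summit were then read for consensus sequences, to find which factor families had recognition letters at these loci. The C/EBP letters TTGCNNAA were present in 9 of 72 regions (12.5%, interval 6.72% to 22.1%), as in 11.7% of all regions. Windows 1000 bp to either side held them in 4.86% at the loci and in 8.09% over the catalog. By gene, they were found at 4 regions of Cebpb, 3 of Cebpa, the same 3 of Cebpg, 2 of Cebpe and 0 of the 8 of Cebpd. At least 1 such region was present for 4 of 5 C/EBP genes and for 52.0% of coding genes. The 4 at Cebpb exceeded the number at 95.7% of coding genes, but were 4 of 24 regions, a total that itself exceeded that of 96.1% of coding genes. The full palindrome TTGCGCAA occurred in 0 of 72 regions (interval up to 5.07%) and in 0.188% of all regions.

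Both top distal regions of Cebpb held the C/EBP letters, as printed above. The others at that locus had their best summits at 26310 and 28492 bp inside A530013C23Rik, with the matches TTGCCAAA and TTGGGCAA. At Cebpa, 2 of the 3 regions are given here, at -12482 and 13894 bp with scores of 748 and 341, and the one not given scored above both. At Cebpe they were at -58413 bp in Slc7a8 (1188) and at 94163 bp at the Psmb5 start site (934).

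The shares of the other motifs lay above or below the catalog's, and at these small counts the wide intervals covered the catalog's share for each. RUNX (TGTGGT) was found in 18 regions (25.0%, against 20.2%), SP/KLF (GGGCGG) in 14 (19.4%, against 16.4%), AP-1 (TGAGTCA) in 8 (11.1%, against 17.3%) and PU.1/ETS (GAGGAAGT) in 5 (6.94%, against 10.1%). STAT6 (TTCNNNNGAA), the factor activated by IL-4, was found in 4 (5.56%, against 6.91%) and NF-kB, activated by LPS, in 3 (4.17%, against 5.34%). CRE (TGACGTCA) was found in 2 (2.78%, against 1.06%), CTCF in 1 (1.39%, against 3.63%) and IRF (GAAANNGAAA) in 0 (interval up to 5.07%, against 3.73%). No match was seen in 22 of 72 regions (30.6%, against 30.2% of all regions).

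Among the 54 distal regions, SP/KLF was found in 8 (14.8%, interval 7.70% to 26.6%), all at Cebpa, Cebpb or Cebpg, as compared to 5.72% of all distal regions. Windows 1000 bp to either side of these best summits held it in 4.63% at the loci and in 2.77% over all distal regions. PU.1/ETS, the motif of the macrophage regulator PU.1, was found in 2 (3.70%, interval 1.02% to 12.5%), as compared to 11.6%. The GC content within 100 bp of the best summit had a median of 54.0% at the 5 loci and 49.8% over all regions, and its part in the SP/KLF share was not tested. A match is a description of the letters and does not show binding.

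**Figure D5:**
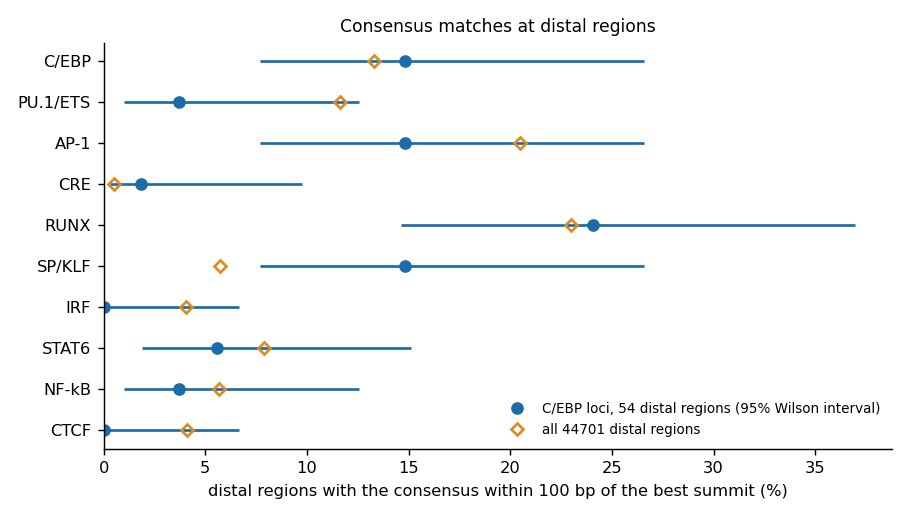
Share (%) of distal regions with each consensus within 100 bp of the best summit, for the 54 distal regions of the C/EBP loci (points with 95% Wilson intervals) and for all distal regions (diamonds). The interval excludes the catalog's share for SP/KLF (14.8% against 5.72%), and covers it for the other 9 motifs.

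Start sites were finally examined at genes that work with or under C/EBP proteins, in 5 lists taken from general knowledge. Of the partners and regulators, 8 of 10 had a start site peak, with the background of 56.5% given above. Present were the dimer partners Ddit3 and Atf4 and the myeloid regulators Spi1 and Runx1, among others, and absent were Gfi1 and Myb, which act in progenitors and granulocytes. The macrophage target genes all had one (15 of 15, interval from 79.6%), with a median of 18 extended regions within 100000 bp. Their best start site scores ranged from 282 at Csf3 to 2074 at Ccl3, named for their extreme values.

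Of the neutrophil granule and progenitor targets, 6 of 12 had a start site peak (interval 25.4% to 74.6%), near the 56.5% of all coding genes. Elane, Mpo, Prtn3 and Ctsg, which encode azurophil granule proteins, and Ngp and S100a9 had none. The 6 with a peak had scores of 505 to 1094. Of the fat cell targets, 3 of 8 had one (Pparg, Fabp4 and Slc2a4), and Adipoq, Lep, Retn, Plin1 and Cidec had none. The interval of this share, 13.7% to 69.4%, covers the 56.5% of all coding genes. Of the liver targets, 0 of 10 had one (interval up to 27.8%, against 56.5%), and they had a median of 4.5 extended regions within 100000 bp. A list gene without a start site peak could still have regions nearby, as shown by Elane with 26 within 100000 bp and Lep with 1. The lists were not tested against each other.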

How the data were processed

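ATAC-seq libraries of BMDMs (18 libraries, 9 groups) gave single-end reads of 76 bases. After adapter removal with BBDuk and trimming with Trimmomatic (0.39), the authors mapped the reads to mm10 with ShortStack, filtered them with SAMtools (1.9) and called peaks with MACS2 (2.2.6), keeping duplicate reads and sub-peak summits. Versions are those in the submitters' processing notes. No shift to the Tn5 cut site is named, so a summit can lie beside the densest cuts, and duplicates can raise a score. The deposited files are 3 BED lists without library columns, 1 of peaks, 1 of the extended regions around them and 1 of summits, each summit with a score. The scale of this deposited score is not stated, and no column belongs to a library, so depth and precision per library are unknown.

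Summits were linked to their peaks and regions, and windows, annotation (GENCODE M21) and consensus sequences (GRCm38.p6, same coordinates as mm10) were computed with Python 3.11.15, numpy 2.4.6, pandas 2.3.3 and scipy 1.17.1, after checks on simulated data. All list entries ended inside the chromosome on 21 of 21 chromosomes. The upstream distance is negative, coordinates are counted from 1, and a percentile is the share of genes or summits with a lower value. Promoters are from the RefSeq table, and repeats are the lower case bases of the genome sequence. Named are the C/EBP genes, their start site peaks, the 3 best distal summits and the region with the most summits per locus, and list genes by presence of a start site peak. Other items were named after their values were seen. One region of the Cebpa locus is counted but not reported singly here. The members and the gene and motif lists were chosen with earlier results of these data known. Alternatives covered the window, the score, the assignment to genes, start sites and the motif.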

Additional observations from a re-analysis of the deposited data

How the results depend on the processing

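The counts of extended regions, reference peaks and summits followed the window. They were 21, 37 and 37 within 20 kb (median 4 regions per gene), 43, 69 and 70 within 50 kb (median 9) and 117, 181 and 184 within 200 kb, beside 72, 118 and 120 (median 19) within 100000 bp. Keeping summits at or above the median score left 63 reference peaks and 65 summits. Keeping regions nearest to a C/EBP gene's start site left 23 regions, 42 reference peaks and 42 summits. With start sites of coding transcripts alone, chosen after seeing the data, 39 regions and 74 summits were left. With the C/EBP palindrome, the share of regions with a match was 0%. The other 22 alternative values for the family stayed within 1.5 times the count or median score or within the wide interval of the share (the C/EBP share was 6.94% within 50 bp and 19.4% within 200 bp of the summit, beside 12.5%, moves of over 1.5 times), among them all 5 genes having a start site peak. Of 25 alternative counts for single genes, 14 moved by over 1.5 times, and Cebpb, first in regions within 100000 bp, came after Cebpa within 20 kb and 50 kb. No paired analysis was possible because the lists have no column per library, and leaving out replicates was not possible for the same reason. The paper describes keeping peaks that passed a q-value cut-off in each sample and overlapped between replicates. Depth limits the catalog to regions that passed this filter, and a region missing from it is not shown to be closed.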

Other observations

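Some neighbours of the C/EBP genes had summits at their own start sites, while Slc7a10, downstream of Cebpa, had none. At Cebpb these were Ube2v1 (-56810 bp from the Cebpb start site, score 1606), Tmem189 (-27192 bp, 1568) and the noncoding gene Gm14321 (88551 bp, 1955), all above the 1224 of Cebpb. At Cebpd the start site of Mzt2 (-23887 bp) scored 1456, beside 1581 for Cebpd. At Cebpe the start site region shared by Acin1 and 1700123O20Rik (25333 bp) scored 2087 and that of Slc7a8 (-69775 bp) 968, both above the 834 of Cebpe.

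The window ended in stretches of different density. The first summit beyond 100000 bp was at -100069 bp for Cebpg (score 979), inside a region that was counted because it reached into the window, and at 102027 bp for Cebpe (439). At Cebpd the next ones were at -177355 bp (1284) and 149326 bp (467), while its outermost summits inside the window scored 341 (-91833 bp) and 544 (99408 bp).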
